A study of Homo sapiens with 15 samples.

Results

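The genes described here are 9 that bring iron into cells, store it, release it or sense it: TFRC, SLC11A2, FTH1, FTL, NCOA4, SLC40A1, HMOX1, ACO1 and IREB2. They were taken by symbol from a table of 26475 gene names, 26443 of them with values, and all 9 were among the 12715 genes tested. They were chosen by function from textbook iron biology, with RPKM differences between these same groups already seen, so the calls below describe these genes and support nothing beyond them. The libraries came from LNCaP, an established prostate cancer line that responds to androgen, kept in RPMI medium with 10% serum and infected with lentivirus for 4 to 5 days. The control group carried the vector pLKO, and the other groups carried a hairpin against PALI1 (shPALI1), G9a (shG9a), JARID2 (shJarid2) or SUZ12 (shsuz12). Each of the 5 groups had 3 libraries, and all 15 share the cell line, its wild-type background and lentiviral infection. SUZ12 and JARID2 are subunits of PRC2, which methylates lysine 27 of histone H3. PALI1 is an accessory protein of PRC2, and G9a methylates lysine 9 of histone H3. The labels name a single hairpin per target, so effects on the target and on other transcripts cannot be told apart.

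Iron reaches most cells bound to transferrin, which the transferrin receptor TFRC takes into endosomes, and the transporter SLC11A2 (DMT1) moves it from there into the cytosol. Iron that is not used is held in ferritin, a shell of heavy (FTH1) and light (FTL) chains, and NCOA4 carries ferritin to lysosomes for breakdown. SLC40A1 (ferroportin) exports iron, and HMOX1 frees it from heme. ACO1 (IRP1) and IREB2 (IRP2) are RNA-binding proteins that, when iron is low, bind hairpins called iron-responsive elements. Binding in a 5′ UTR blocks translation of that mRNA, and binding in the 3′ UTR of TFRC protects its mRNA from decay. RNA sequencing reads the mRNA level alone, so translational control of ferritin is outside these measurements.

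The elements are shown because they are the sequence feature by which the cell couples these mRNAs to each other. They were searched for in the UTRs of GENCODE v29 on GRCh38 as a C, any 5 bases, the loop CAGTGN, and then 5 bases that pair with the 5 before the loop (G with T allowed), on the transcript strand only. Each line gives 27 bases, 5′ to 3′, and the capitals mark the 6-base loop.
TFRC element 1: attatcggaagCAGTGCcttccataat
TFRC element 2: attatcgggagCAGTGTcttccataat
TFRC element 3: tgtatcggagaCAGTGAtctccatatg
TFRC element 4: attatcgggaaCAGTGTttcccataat
FTH1 element: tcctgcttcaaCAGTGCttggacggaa
FTL element: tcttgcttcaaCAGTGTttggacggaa
SLC40A1 element: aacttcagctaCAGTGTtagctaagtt
SLC11A2 element, 1 pair missing: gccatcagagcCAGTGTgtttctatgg

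The 4 TFRC elements found lay in the 3′ UTR, in exon 19 of 19 on the minus strand, at chr3:196050980-196051006, chr3:196050576-196050602, chr3:196050511-196050537 and chr3:196050464-196050490. The FTH1 element lay in the 5′ UTR, in exon 1 of 4 on the minus strand (chr11:61967575-61967601), and the FTL element in the 5′ UTR, in exon 1 of 4 on the plus strand (chr19:48965336-48965362). The SLC40A1 element lay in the 5′ UTR, in exon 1 of 8 on the minus strand (chr2:189580662-189580688). The SLC11A2 element lay in the 3′ UTR on the minus strand (chr12:50988270-50988296) and belonged to 5 of 11 coding transcripts, so a gene-level value mixes mRNAs with and without it. A fully paired match was present in 4 of the 9 genes and in 159 of 19613 genes with a UTR, or 0.811%. With 1 missing pair allowed, 7 of the 9 genes matched, ACO1 and IREB2 through their 3′ UTRs, against 5.69% of all genes. A match of these letters is a description and does not show that a protein binds there. An element with another loop would not be found by this search.

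Values are RPKM, read numbers divided by gene length and library size, and a log2 change is a difference of log2(RPKM + 1), which is smaller than the ratio of RPKM for low genes. A gene is said to have risen or fallen where limma's adjusted p over all 12715 genes was under 0.05. The p-values measure only the spread between libraries, which may be technical, as no label ties the replicates to separate cultures. Depth, worked out from the steps of low values, was 10.56 to 19.36 M reads, which makes 1 RPKM over 2 kb equal to 21.1 to 38.7 reads. Each targeted gene fell in its own group, with log2 changes of -1.37 for C10orf12, the PALI1 part of the LCOR locus, -1.27 for EHMT2 (G9a), -1.9 for JARID2 and -2.58 for SUZ12. Some also changed in other groups against pLKO. EHMT2 fell in shsuz12 (-0.24) and, with all its libraries, in shJarid2 (-0.37), and JARID2 rose in shsuz12 (0.45). C10orf12 and SUZ12 passed in no other group. LCOR itself fell in shPALI1 (-0.58) and rose in shsuz12 (0.58). Of 10 luminal prostate markers, 10 were detected in every group, and their summed level was 2140 to 2360 RPKM in pLKO, 926 to 1040 in shPALI1, 1130 to 1190 in shG9a, 1740 to 2050 in shJarid2 and 1400 to 1510 in shsuz12. The part of this shift in the results was not tested. The 6 erythroid markers, the cells best known for heavy iron traffic, summed to at most 0.319 RPKM in any library, with HBA2 at 0 in every group. The 6 macrophage and other immune markers, nearly all of the sum CD68, which epithelial lines also express, came to 2.32 to 3.3 RPKM in pLKO, 4.22 to 4.78 in shPALI1, 2.59 to 3.4 in shG9a, 3.52 to 4.98 in shJarid2 and 2.24 to 2.83 in shsuz12. PTPRC, the defining marker of those cells, was at 0 in every library outside shJarid2. The 3 basal markers reached at most 0.593 RPKM outside shJarid2 and 3.41 to 4.86 in shJarid2, where KRT5 and TP63 were at 0 and KRT14 made up the sum. Replicate 3 of shJarid2 stood apart, with r across genes of 0.975 and 0.978 to the other replicates, which had 0.992 between them. Results for shJarid2 against pLKO are therefore given with and without it, those of the lists together after the last list. In bulk RNA, fewer cells of a kind and less RNA per cell cannot be told apart.

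Against pLKO, the iron genes went different ways in the 4 knockdowns. In shJarid2, TFRC and SLC11A2 fell while FTH1, HMOX1 and ACO1 rose. In shsuz12, TFRC, FTH1, FTL, ACO1 and IREB2 fell while HMOX1, SLC11A2 and NCOA4 rose and SLC40A1 was higher. In shPALI1, HMOX1 and FTH1 rose, with smaller changes in TFRC, SLC11A2 and ACO1, and in shG9a FTL fell and HMOX1 rose. The counts called were 5 of 9 in shPALI1, where 41.6% of all genes were called, and 2 of 9 in shG9a, against 43.1%. They were 5 of 9 in shJarid2, against 51%, and 9 of 9 in shsuz12, against 53.9%. SLC40A1 passed the filter only through shsuz12, and without it the last count was 8 of 8. Of all genes, 16.5% rose and 25.1% fell in shPALI1, 18.4% and 24.7% in shG9a, 23.8% and 27.2% in shJarid2, and 21.1% and 32.8% in shsuz12. The median log2 changes of the 9 were 0.1, 0.08, -0.15 and -0.34, beside -0.05, -0.04, -0.04 and -0.08 for all genes. All 4 comparisons use the same pLKO libraries.

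**Figure D1:**
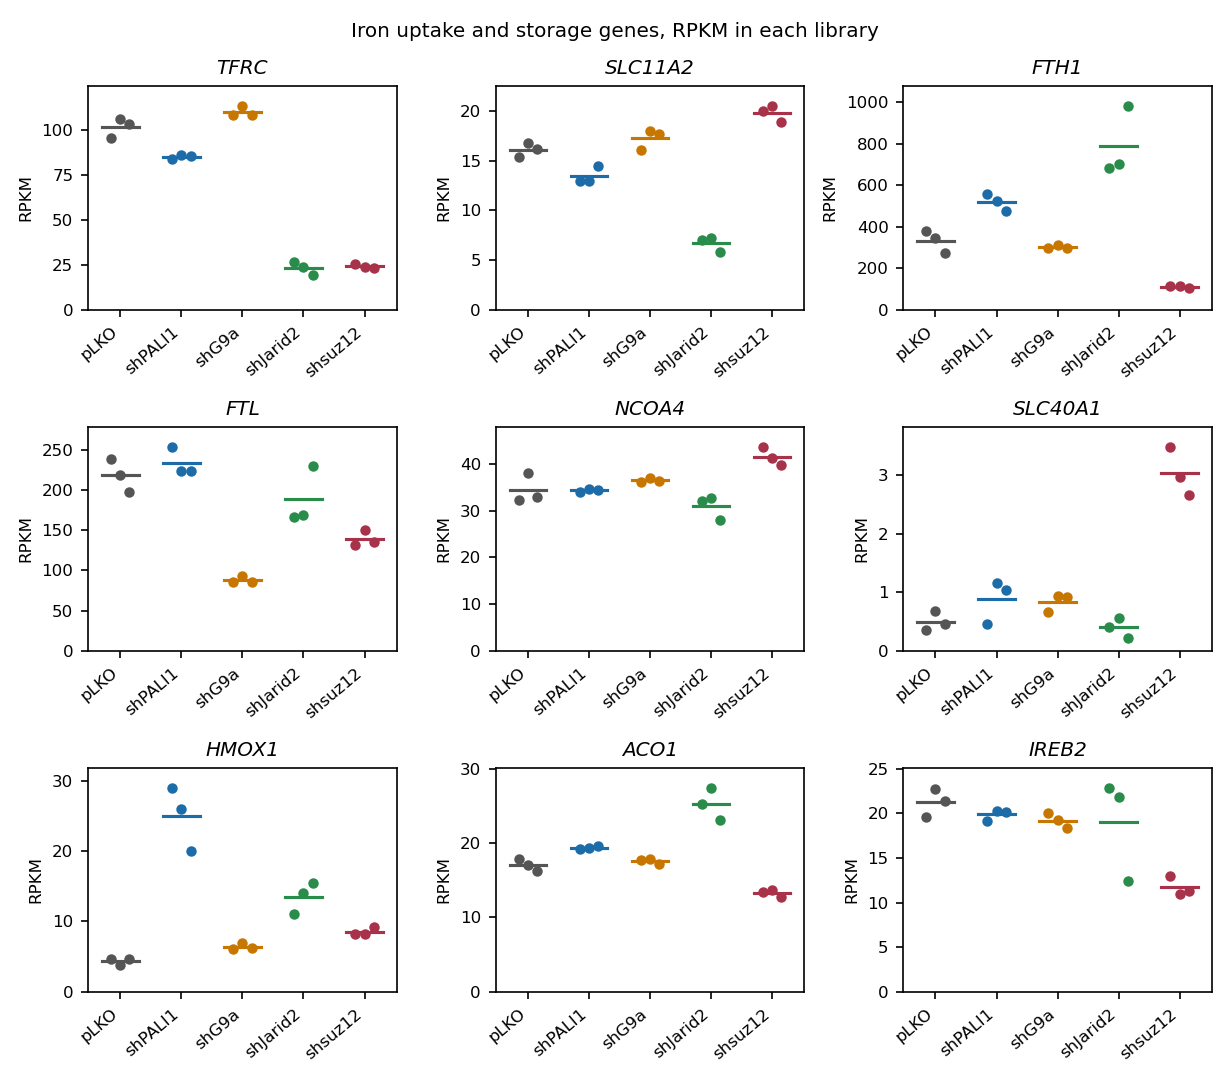
RPKM of each of the 9 iron genes (1 panel a gene, linear axis from 0) in the 15 libraries by group, with points for libraries and bars at the group means. TFRC sits near 24 RPKM in shJarid2 and shsuz12 and at 83.5 or more in the other groups, and FTH1 spans from 105 in shsuz12 to 980 in shJarid2.

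TFRC (ENSG00000072274.12, chr3:196027183-196082189) was a highly expressed mRNA in the control cells, at 95.3, 106 and 103 RPKM in the pLKO libraries (102 ± 5.5, SD, n = 3). It was at 26.5, 23.5 and 19.2 in shJarid2 (23.1 ± 3.7) and at 25.3, 23.8 and 23.0 in shsuz12 (24.0 ± 1.2). These 6 libraries lay far below every other library. TFRC was thus at 22.7% of pLKO in shJarid2, a log2 change of -2.1 ± 0.09 (SE, adjusted p = 1.1e-09, limma), and at 24.6% without replicate 3. In shsuz12 it was at 23.7%, a change of -2.03 ± 0.09 (adjusted p = 1.8e-09, limma). The shJarid2 and shsuz12 values overlapped, and their difference of -0.07 ± 0.09 did not pass the test (adjusted p = 0.55, limma). Without replicate 3 of shJarid2 the same difference was 0.055.

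In shPALI1, TFRC was at 83.5, 86.2 and 85.6 RPKM (85.1 ± 1.4), all below the pLKO libraries. The drop to 83.8% of pLKO passed narrowly (-0.25 ± 0.09, adjusted p = 0.04, limma). It did not pass with no filter (adjusted p = 0.0578), median ratio scaling (0.11), quantile normalization (0.358) or TPM, the values rescaled to a common sum (0.19). Nor did it pass without pLKO replicate 2 (adjusted p = 0.119) or 3 (0.0927), or without shPALI1 replicate 1 (0.0973), 2 (0.0758) or 3 (0.0796), so the call held in 6 of 15 alternatives. In shG9a the receptor was at 108, 113 and 108, just above the pLKO range. That rise of 0.11 did not pass (adjusted p = 0.37, limma).

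SLC11A2 (ENSG00000110911.15, chr12:50979401-51028566), the endosomal iron transporter, parted from TFRC in shsuz12. It was at 15.4, 16.8 and 16.2 RPKM in pLKO (16.1 ± 0.71, n = 3) and at 7.06, 7.23 and 5.78 in shJarid2 (6.69 ± 0.79). In shsuz12 it was at 20.0, 20.5 and 18.9 (19.8). The shJarid2 libraries held less than every other library and the shsuz12 libraries more than every other. The change in shJarid2 was -1.16 ± 0.08 (adjusted p = 4.9e-08, limma), to 41.4% of pLKO, or 44.2% without replicate 3. In shsuz12 the transporter rose by 0.28 ± 0.08 to 123% of pLKO (adjusted p = 0.0093, limma). Set directly against each other, shJarid2 was lower than shsuz12 by 1.44 ± 0.08 (log2 difference -1.44, adjusted p = 4.1e-09, limma), while TFRC did not pass in that comparison. In shPALI1 the values of 13.0, 13.0 and 14.5 lay below pLKO (-0.24, adjusted p = 0.025, limma), a call that held in 8 of 15 alternatives. It was lost with median ratio scaling (adjusted p = 0.077), quantile normalization (0.0778) and TPM (0.148), without pLKO replicate 2 (0.0835) or 3 (0.0587), and without shPALI1 replicate 1 (0.0816) or 2 (0.0855). In shG9a they were 16.1, 18.0 and 17.7, within or above the pLKO range (0.09, adjusted p = 0.38, limma).

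The ferritin chains, partners in one protein shell, did not move as a pair. FTH1 (ENSG00000167996.15, chr11:61959718-61967660), the heavy chain that oxidises iron, was at 377, 344 and 275 RPKM in pLKO (332 ± 52, n = 3). It was at 682, 700 and 980 in shJarid2 (787 ± 170) and at 112, 116 and 105 in shsuz12 (111 ± 5.3). All shJarid2 libraries lay above, and all shsuz12 libraries below, every library of the other groups. In shJarid2, replicate 3 was the highest, and without it the mean was 691. By mean RPKM, FTH1 ranked 73rd of all genes in pLKO, 19th in shJarid2 and 300th in shsuz12. Its change was 1.23 ± 0.14 in shJarid2 (adjusted p = 4.1e-06, limma), or 237% of pLKO and 208% without replicate 3. In shsuz12 it was -1.56 ± 0.14 (adjusted p = 4.2e-07, limma), or 33.4% of pLKO. The direct difference, shJarid2 minus shsuz12, was 2.8 ± 0.14 (adjusted p = 1.1e-09, limma), and it passed in all 15 alternatives, replicate 3 left out among them.

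In shPALI1, FTH1 was at 558, 525 and 478 RPKM (521 ± 40), between the shJarid2 and pLKO ranges and overlapping neither. It had risen by 0.65 ± 0.14 to 157% of pLKO (adjusted p = 0.0015, limma). In shG9a it was at 298, 312 and 295, inside the pLKO range (-0.13, adjusted p = 0.47, limma).

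FTL (ENSG00000087086.14, chr19:48965301-48966878), the light chain that helps form the mineral core, was at 238, 219 and 198 RPKM in pLKO (219 ± 20, n = 3). In shG9a it was at 85.3, 92.6 and 85.1 (87.7 ± 4.3), below every library of every other group. It thus fell in shG9a to 40.1% of pLKO (-1.3 ± 0.12, adjusted p = 9.3e-07, limma), where FTH1 did not pass. In shsuz12 FTL was at 132, 150 and 135, below pLKO, and fell by 0.65 ± 0.12 to 63.6% (adjusted p = 0.0003, limma). In shPALI1 the values of 253, 224 and 224 overlapped with pLKO (0.1, adjusted p = 0.52, limma).

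The FTL result in shJarid2 changed with 1 library and with the scaling. The values were 166, 169 and 230 RPKM, with replicates 1 and 2 below the pLKO range and replicate 3 inside it. With all 3 the change of -0.23 did not pass (adjusted p = 0.12, limma). Without replicate 3 FTL was at 76.6% of pLKO and the change of -0.379 passed (adjusted p = 0.00186). With all 3 it also passed with quantile normalization (-0.31) and TPM (-0.255).

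The ratio of FTH1 to FTL RPKM shows this uncoupling within each library. It was 1.58, 1.57 and 1.39 in pLKO, 2.21, 2.34 and 2.13 in shPALI1, 3.49, 3.37 and 3.47 in shG9a, 4.12, 4.14 and 4.26 in shJarid2, and 0.849, 0.771 and 0.78 in shsuz12. No 2 groups overlapped, and the spread within a group was small beside the distance between groups, also in shJarid2, whose replicate 3 stood apart in FTH1 and FTL alike. The ratio is given as a description, with no test. The mRNA of the 2 chains together came to 551 ± 72 RPKM in pLKO, 754 ± 54 in shPALI1, 390 ± 13 in shG9a, 975 ± 200 in shJarid2 (858 without replicate 3) and 250 ± 14 in shsuz12 (SD, n = 3). The ratio of FTH1 to TFRC, storage against uptake, was 3.29 in pLKO, 6.12 in shPALI1, 2.76 in shG9a, 35.5 in shJarid2 (27.7 without replicate 3) and 4.62 in shsuz12, where both mRNAs were low. FTH1 and FTL have 25 and 16 annotated pseudogenes, of which 2 and 1 are in the table and reach at most 0.993 RPKM, and NCOA4 has 3. Reads can be shared with such copies, so the levels of these 3 genes are uncertain. The exons of FTH1 also overlap BEST1 on the other strand, which reached at most 2.614 RPKM.

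**Figure D2:**
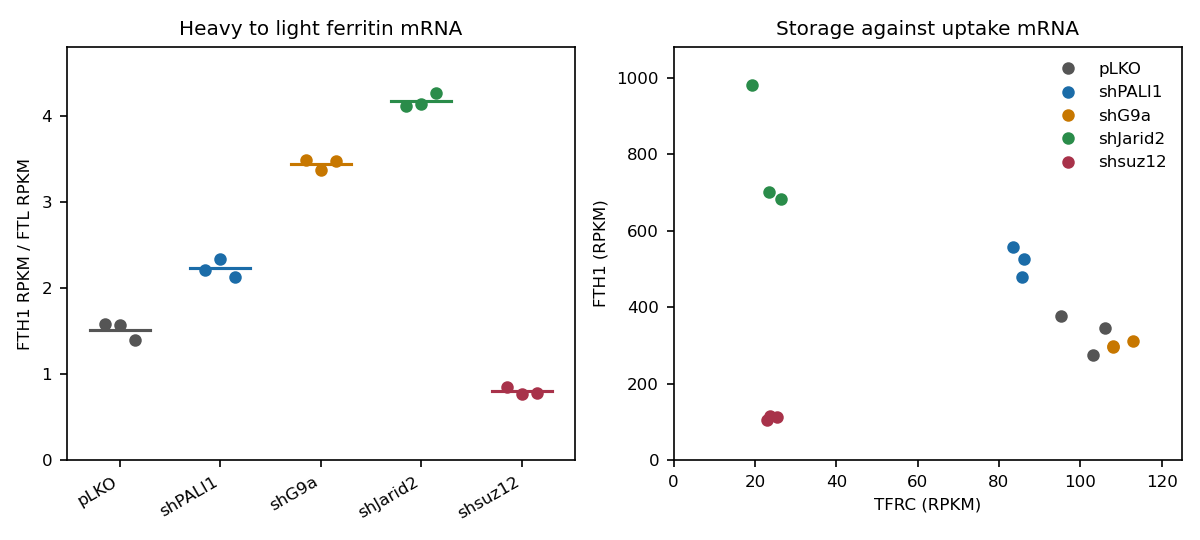
Left, the ratio of FTH1 to FTL RPKM in each library by group, with bars at the group means; right, FTH1 RPKM against TFRC RPKM in the 15 libraries, coloured by group. The ratio runs from near 0.8 in shsuz12 to near 4.17 in shJarid2, and these groups share a low TFRC level at opposite ends of the FTH1 range.

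NCOA4 (ENSG00000266412.5, chr10:46005088-46030714), the receptor that delivers ferritin to lysosomes, varied least, with group means within 0.42 log2 units. Its lowest value was 28.1 RPKM, in shJarid2, and its highest 43.6, in shsuz12. It was at 43.6, 41.3 and 39.9 RPKM in shsuz12 (41.6 ± 1.8), against 32.4, 38.1 and 33 in pLKO. The shsuz12 libraries were above all others, and the rise of 0.27 ± 0.07 to 121% of pLKO passed (adjusted p = 0.0064, limma). In the other comparisons with pLKO it did not pass (adjusted p between 0.091 and 0.99, limma), and in shJarid2 it was at 93.7% of pLKO without replicate 3.

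SLC40A1 (ENSG00000138449.10, chr2:189560579-189583758), the iron exporter, was near the detection limit except in shsuz12. It was at 0.362, 0.674 and 0.46 RPKM in pLKO (0.499 ± 0.16, n = 3) and at 3.48, 2.98 and 2.67 in shsuz12 (3.04 ± 0.41), above every other library. It reached 1 RPKM in 5 libraries, 3 of shsuz12 and 2 of shPALI1, so it entered the test only through the group where it was high. Its level in shsuz12, 610% of pLKO and a log2 difference of 1.43 ± 0.15, is therefore given as a description. In shPALI1 it was at 0.452, 1.15 and 1.04, an uneven group that overlapped with pLKO (0.31, adjusted p = 0.12, limma). Without shPALI1 replicate 1 that change was 0.489 and passed (adjusted p = 0.0145). Its values were 0.657, 0.941 and 0.915 in shG9a and 0.414, 0.568 and 0.215 in shJarid2, and neither comparison passed (adjusted p = 0.14 and 0.61, limma). Without shJarid2 replicate 3 it was at 98.5% of pLKO there.

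HMOX1 (ENSG00000100292.16, chr22:35380361-35394214), the inducible enzyme that opens the heme ring and releases its iron, was higher than pLKO in all 4 knockdowns. It was at 4.68, 3.79 and 4.64 RPKM in pLKO (4.37 ± 0.5, n = 3) and at 28.9, 25.9 and 20.0 in shPALI1 (24.9 ± 4.5). In shJarid2 it was at 11.1, 14.0 and 15.4 (13.5 ± 2.2), in shsuz12 at 8.22, 8.19 and 9.25 (8.55), and in shG9a at 6.05, 6.87 and 6.14 (6.35). No group overlapped with another, and each step in the order shPALI1, shJarid2, shsuz12, shG9a, pLKO passed its own test. The step between shsuz12 and shG9a (0.38, adjusted p = 0.029, limma) did not pass with no filter (adjusted p = 0.0553). Nor did it pass without shG9a replicate 1 (adjusted p = 0.0856) or 3 (0.0796), or without shsuz12 replicate 3 (0.103).

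Against pLKO the change in HMOX1 was 2.26 ± 0.13 in shPALI1 (adjusted p = 1.2e-08, limma), or 570% of the control level. It was 1.43 ± 0.13 in shJarid2 (adjusted p = 7e-07, limma), or 309%, and 288% without replicate 3. In shsuz12 it was 0.83 ± 0.13 (adjusted p = 0.0001, limma), or 196%. In shG9a it was 0.46 ± 0.13 (adjusted p = 0.012, limma), or 145%, and this call did not hold without pLKO replicate 2 (0.376, adjusted p = 0.0561). CD68 also rose in shPALI1 (0.46) and in shJarid2 (0.45), and its part in these results was not tested.

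Of the iron sensors, both fell in shsuz12, while in shJarid2 ACO1 rose and IREB2 did not pass. ACO1 (ENSG00000122729.18, chr9:32384603-32454769), a cytosolic aconitase that turns into an RNA-binding protein when it loses its iron-sulfur cluster, was at 17.9, 17.1 and 16.3 RPKM in pLKO (17.1 ± 0.82, n = 3). It was at 25.3, 27.4 and 23.2 in shJarid2 (25.3 ± 2.1) and at 13.4, 13.7 and 12.8 in shsuz12 (13.3 ± 0.46). The shJarid2 libraries were the highest of all and the shsuz12 libraries the lowest, with no overlap. ACO1 rose by 0.53 ± 0.06 in shJarid2 (adjusted p = 9.5e-06, limma), to 148% of pLKO, or 154% without replicate 3. It fell by 0.34 ± 0.06 in shsuz12 (adjusted p = 0.00044, limma), to 77.5%, and this call was lost with TPM (-0.228, adjusted p = 0.0538).

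In shPALI1, ACO1 was at 19.2, 19.4 and 19.6 RPKM, above the pLKO range by little (0.17 ± 0.06, adjusted p = 0.045, limma). That call held in 8 of 15 alternatives. It was lost with TPM (adjusted p = 0.0993) and in a fit to the 6 libraries alone (0.0575), without pLKO replicate 2 (0.089) or 3 (0.142) and without shPALI1 replicate 1 (0.0781), 2 (0.0971) or 3 (0.108). In shG9a it was at 17.7, 17.9 and 17.2, which overlapped with pLKO (0.04, adjusted p = 0.67, limma).

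IREB2 (ENSG00000136381.12, chr15:78437431-78501456), the sensor that is degraded when iron is plentiful, was at 19.6, 22.7 and 21.4 RPKM in pLKO (21.2 ± 1.6, n = 3). In shsuz12 it was at 13.0, 10.9 and 11.3 (11.7 ± 1.1), below every pLKO, shPALI1 and shG9a library. The fall of 0.81 ± 0.16, to 55.2% of pLKO, passed (adjusted p = 0.00074, limma). In shJarid2 it was at 22.8, 21.8 and 12.4, with replicate 3 near the shsuz12 level and replicates 1 and 2 within or just above the pLKO range. The shJarid2 change of -0.2 did not pass (adjusted p = 0.33, limma) and turned to 0.069 without replicate 3 (adjusted p = 0.476). In shPALI1 and shG9a, at 18.3 to 20.3 RPKM over the 6 libraries, neither change passed (adjusted p = 0.69 and 0.51, limma).

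**Figure D3:**
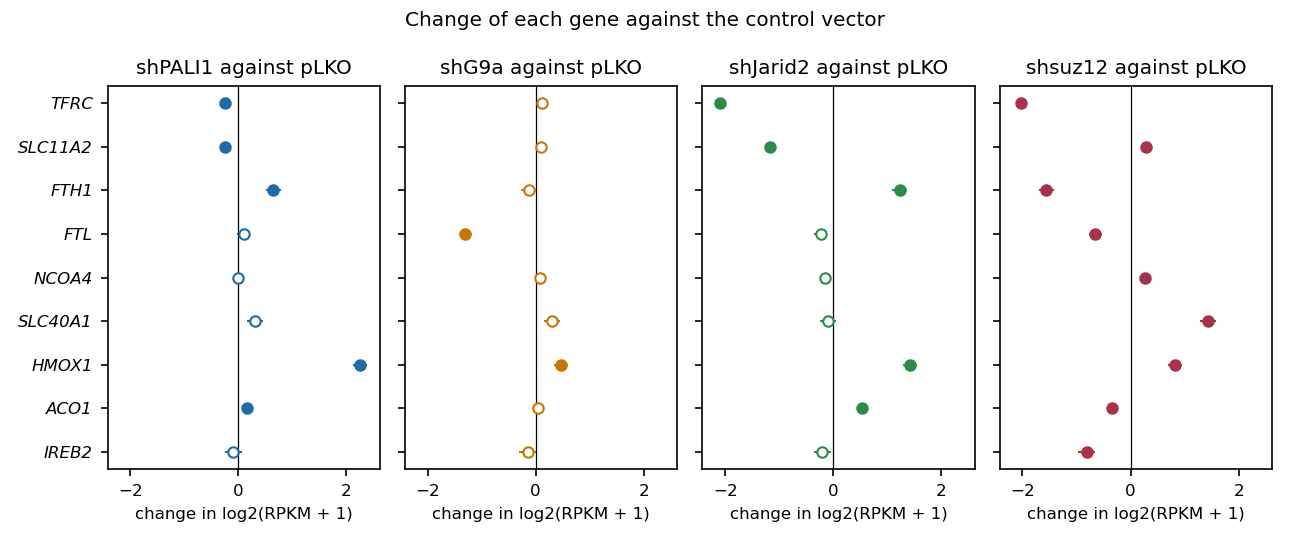
Log2 change of each iron gene against pLKO in the 4 knockdowns, with error bars of 1 SE from limma; filled symbols passed at an adjusted p of 0.05 and open symbols did not. TFRC stands near -2 in shJarid2 and shsuz12, FTH1 lies at 1.23 in shJarid2 and -1.56 in shsuz12, and HMOX1 is above 0 in all 4.

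The knockdowns were also set against each other, without the pLKO libraries. Between shJarid2 and shsuz12, whose targets are both subunits of PRC2, 8 of the 9 genes differed, TFRC being the exception, against 59% of all genes. Without SLC40A1, which entered the tests only through shsuz12, that count was 7 of 8. FTH1, FTL, HMOX1, ACO1 and IREB2 were higher in shJarid2, and SLC11A2, SLC40A1 and NCOA4 were higher in shsuz12. For IREB2 the groups overlapped through shJarid2 replicate 3, and the difference was 0.61 ± 0.16 (adjusted p = 0.0048, limma), or 0.876 without that library. The IREB2 call was lost with TPM (adjusted p = 0.0679) and in a fit to the 6 libraries alone (0.0543). Between shPALI1 and shsuz12 all 9 genes differed (8 of 8 without SLC40A1), against 55.9% of all genes, with TFRC higher by 1.78 ± 0.09 in shPALI1 (adjusted p = 2e-09, limma) and FTH1 by 2.22 ± 0.14 (adjusted p = 1.1e-08, limma). Between shPALI1 and shJarid2 the count was 7, against 62.3%, and 5 to 6 with any 1 of these libraries left out, through FTL and SLC40A1. There TFRC was higher in shPALI1 by 1.85 ± 0.09 (adjusted p = 7.1e-10, limma) and FTH1 was lower, with a log2 difference of -0.58 ± 0.14 (adjusted p = 0.0019, limma). Without shJarid2 replicate 3 these differences were 1.729 and -0.411, and both passed.

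PALI1 and G9a are the pair the series title names together. Between their knockdowns 5 of the 9 genes differed, against 48.2% of all genes. HMOX1 was higher in shPALI1 by 1.8 ± 0.13 (adjusted p = 6.5e-08, limma), FTL by 1.4 ± 0.12 (adjusted p = 2.3e-07, limma) and FTH1 by 0.78 ± 0.14 (adjusted p = 0.00026, limma). TFRC and SLC11A2 were lower in shPALI1, by -0.36 ± 0.09 and -0.33 ± 0.08 (adjusted p = 0.0048 and 0.0032, limma). The count was 8 between shG9a and shJarid2 (7 of 8 without SLC40A1), against 55.8%. Between shG9a and shsuz12 it was 7 (6 of 8 without SLC40A1), against 45.6%. The SLC40A1 call between shG9a and shJarid2, where both means were under 1 RPKM, held in 8 of 14 alternatives. It was lost without shJarid2 replicate 3 (adjusted p = 0.135, limma).

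Other genes of iron handling were taken from lists by function. For comparison, 16.5% of all genes rose and 25.1% fell in shPALI1, and 18.4% and 24.7% in shG9a. The shares were 23.8% and 27.2% in shJarid2, and 21.1% and 32.8% in shsuz12. Several list counts, here and below, lie near these shares, and no list was tested against them. Of 14 other uptake genes 6 were tested; 1 rose and 4 fell in shPALI1, 0 and 4 in shG9a, 2 and 2 in shJarid2, and 2 and 2 in shsuz12. STEAP1 and STEAP2, members of the STEAP family that are abundant in prostate epithelium, were at 135 and 131 RPKM in pLKO. They fell in shPALI1 to 69.3 and 74.5 (-0.95 and -0.8) and in shG9a to 64.3 and 73.1 (-1.06 and -0.83), and rose in shJarid2 to 220 and 200 (0.7 and 0.59). In shsuz12 STEAP2 fell to 90.7 (-0.52), and STEAP1, at 113, did not pass (-0.24, adjusted p = 0.056, limma). SLC39A8, a zinc and iron importer, rose in shPALI1 from 10.8 to 22.7 (1.01) and fell in shJarid2 to 9.13 (-0.22), and did not pass in the other groups. Of 10 genes of export, storage and iron chaperoning 4 were tested; 2 rose and 0 fell in shPALI1, 1 and 1 in shG9a, 1 and 0 in shJarid2, and 0 and 3 in shsuz12. Of 12 genes of systemic and protein-level iron control 7 were tested; 2 rose and 0 fell in shPALI1, 1 and 1 in shG9a, 3 and 2 in shJarid2, and 3 and 3 in shsuz12. BMP6, a ligand that signals iron load to the liver, was at 0.785 RPKM in pLKO and 0.142 in shJarid2 (log2 difference -0.64). It was at 5.47 in shPALI1 (1.86) and 1.96 in shsuz12 (0.71). Only in shPALI1 and shsuz12 did all its libraries reach 1 RPKM, so it entered the test through the groups where it was high. Its levels are therefore given as a description, though the counts of this list include it. NEO1, a receptor of the BMP6 pathway, rose from 9.67 to 12.2 in shG9a (0.3) and to 19.8 in shsuz12 (0.96).

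Of 16 genes of heme, the molecule HMOX1 breaks down, 1 rose and 8 fell in shPALI1, 2 and 7 in shG9a, 7 and 3 in shJarid2, and 2 and 6 in shsuz12. Their median changes were -0.25, -0.16, 0.23 and -0.18, beside -0.05, -0.04, -0.04 and -0.08 for all genes. In shG9a the median was -0.058 with TPM, and in shsuz12 it was -0.073 with median ratio scaling, -0.05 with TPM and -0.04 with quantile normalization. In shJarid2 it was 0.108 without replicate 3 and 0.353 without replicate 1. The 7 that fell in shG9a became 4 without pLKO replicate 2 and 4 without shG9a replicate 2. In shJarid2, ALAS1, the rate-limiting enzyme of heme synthesis outside red cells, rose from 27 to 61.3 RPKM (1.15), with 32.5 in shPALI1 and 33.2 in shG9a, where it also rose (0.26 and 0.29). BLVRB, a biliverdin reductase, rose in shJarid2 from 84.9 to 208 (1.26) and fell in shPALI1 to 48.5 (-0.79) and in shsuz12 to 61.5 (-0.46).

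Of 24 genes of mitochondrial iron and iron-sulfur cluster assembly, where much of the cell's iron is used, 3 rose and 6 fell in shPALI1, 1 and 14 in shG9a, 5 and 8 in shJarid2, and 1 and 13 in shsuz12. The median changes were -0.08, -0.3, -0.13 and -0.26, beside -0.05, -0.04, -0.04 and -0.08 for all genes. The 6 that fell in shPALI1 lie near the share of all genes, 25.1%. Without shJarid2 replicate 3 the shJarid2 median was -0.232 and 12 genes fell. CISD3, a mitochondrial iron-sulfur protein, was at 19.2 RPKM in pLKO and fell to 9.18 in shPALI1 (-0.98), 8.56 in shG9a (-1.07) and 8.91 in shsuz12 (-1.02). FDXR, the reductase that feeds electrons to cluster assembly, fell from 27 to 11.9 in shG9a (-1.11) and 13.3 in shJarid2 (-0.97) and rose to 37.1 in shPALI1 (0.44) and 44.1 in shsuz12 (0.69). ABCB10, a mitochondrial transporter, fell from 8.62 to 3.65 in shPALI1 (-1.05), 6.1 in shG9a (-0.44) and 4.91 in shsuz12 (-0.7). Of 9 cytosolic cluster genes, 0 rose and 5 fell in shPALI1, 0 and 2 in shG9a, 3 and 2 in shJarid2, and 0 and 5 in shsuz12. The 5 that fell in shPALI1 were 2 without pLKO replicate 1, shPALI1 replicate 1 or shPALI1 replicate 2, and 3 without pLKO replicate 2 or shPALI1 replicate 3.

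HMOX1 and the ferritin genes are known targets of NRF2, which activates them, and of BACH1, which represses them. Of 16 other genes of that response, 8 rose and 2 fell in shPALI1, 2 and 6 in shG9a, 7 and 1 in shJarid2, and 0 and 11 in shsuz12. The 16 mix target genes with the regulators NFE2L2 (NRF2), KEAP1 and BACH1. Of these regulators, NFE2L2 is among the rises in shPALI1, and NFE2L2 and the repressor BACH1 are among the falls in shsuz12. The median changes were 0.25, -0.24, 0.17 and -0.33, beside -0.05, -0.04, -0.04 and -0.08 for all genes. In shJarid2, the quinone reductase NQO1 rose from 43.1 to 106 RPKM (1.27) and the malic enzyme ME1 from 23.9 to 53.3 (1.13). SLC7A11, the cystine importer, rose from 13.0 to 23.1 in shPALI1 (0.79) and 20.6 in shJarid2 (0.6) and fell in shsuz12 to 6.33 (-0.93). The shG9a median was -0.14 with TPM, and in shsuz12 it was -0.189 with quantile normalization, where 2 genes rose.

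Of 16 autophagy genes, which act with NCOA4 in ferritin turnover, 3 rose and 3 fell in shPALI1, 5 and 3 in shG9a, 12 and 2 in shJarid2, and 4 and 6 in shsuz12. Their medians were -0.01, 0.06, 0.34 and -0.1, beside -0.05, -0.04, -0.04 and -0.08 for all genes. The shG9a median was 0.174 with TPM, and that of shsuz12 turned to 0.007 with quantile normalization and 0.023 with TPM. In shJarid2, GABARAPL1, a protein of the autophagosome membrane, rose from 17.4 to 37.6 RPKM (1.06), and in shsuz12 to 24.7 (0.48). SQSTM1, a cargo receptor, was at 136 in pLKO and rose to 280 in shJarid2 (1.03) but fell to 71.0 in shsuz12 (-0.93). BECN1, part of the kinase complex that starts autophagosomes, was at 22.9 in pLKO and fell in all 4 knockdowns, to 8.37 in shPALI1 (-1.35), 7.22 in shG9a (-1.54), 14.2 in shJarid2 (-0.65) and 12.5 in shsuz12 (-0.82). ULK1, the starting kinase, rose in all 4 from 12.5, to 28.1 in shPALI1 (1.12), 22.7 in shG9a (0.82), 23.5 in shJarid2 (0.87) and 28.5 in shsuz12 (1.14). ATG9A, a membrane protein of forming autophagosomes, likewise rose from 15.3, to 25.1 in shPALI1 (0.68), 29.7 in shG9a (0.91), 30.1 in shJarid2 (0.93) and 33 in shsuz12 (1.06).

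Of 5 other mRNAs known to carry an iron-responsive element 3 were tested; 1 rose and 1 fell in shPALI1, 0 and 2 in shG9a, 0 and 1 in shJarid2, and 0 and 0 in shsuz12. EPAS1, the hypoxia-inducible factor HIF-2 alpha, was below the filter, with means of 0.338 RPKM in pLKO, 0.351 in shPALI1, 0.0589 in shG9a, 0.186 in shJarid2 and 0.379 in shsuz12. ALAS2, the red-cell form of the first heme enzyme, did not reach 0.1 RPKM in any library.

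Without replicate 3 of shJarid2, the counts that rose and fell against pLKO in that group were 2 and 1 for uptake, 1 and 0 for export, storage and chaperones, 3 and 2 for iron control, 7 and 4 for heme, and 5 and 12 for mitochondrial clusters. They were 2 and 3 for cytosolic clusters, 8 and 1 for the NRF2 and BACH1 response, 12 and 2 for autophagy, and 1 and 1 for the other mRNAs with an element. Means without it were not worked out for SLC7A11, EPAS1 and CD68. Other means became 204 RPKM for STEAP1, 227 for STEAP2, 9.41 for SLC39A8, 0.148 for BMP6, 59.0 for ALAS1, 179 for BLVRB and 12.1 for FDXR. They became 97.3 for NQO1, 53.1 for ME1, 37.3 for GABARAPL1, 262 for SQSTM1, 13.8 for BECN1, 23.3 for ULK1 and 29.1 for ATG9A.

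**Figure D4:**
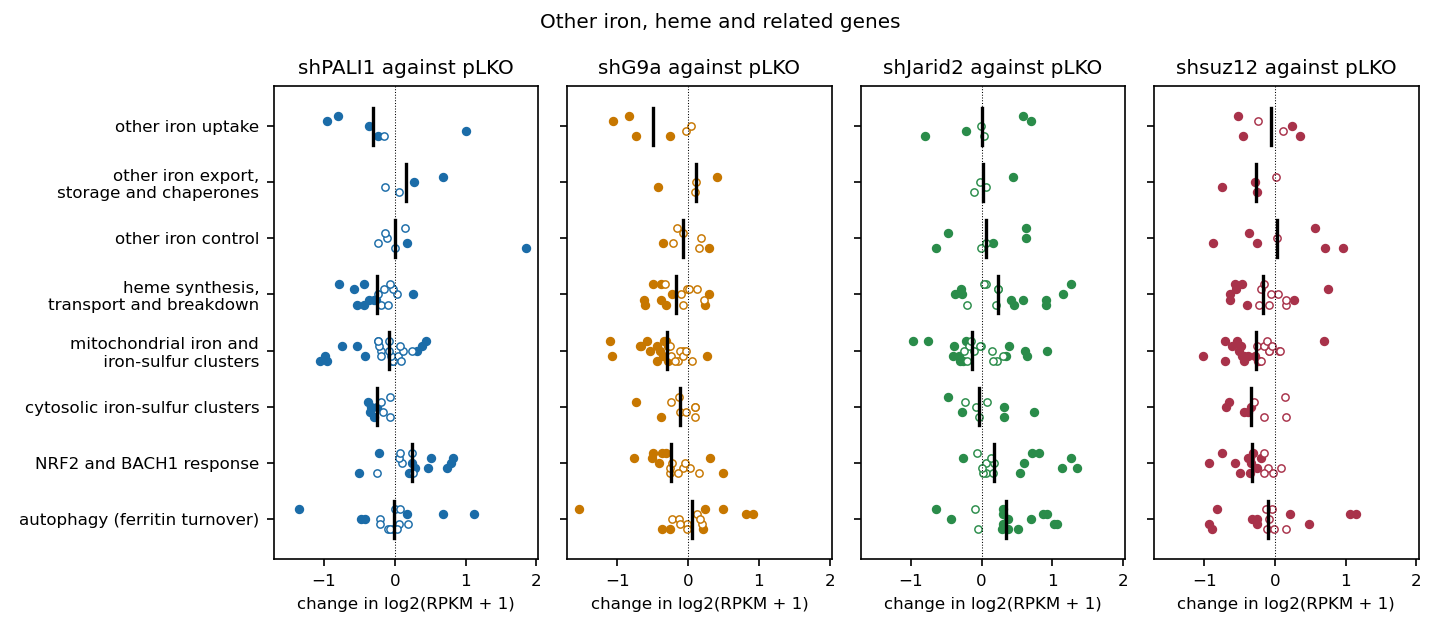
Log2 change against pLKO of each tested gene of 8 lists of other iron genes in the 4 knockdowns; filled points passed at an adjusted p of 0.05, open points did not, and black ticks are list medians. The NRF2 and BACH1 list has medians of 0.25 in shPALI1 and -0.33 in shsuz12, and the autophagy list a median of 0.34 in shJarid2.

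The tested genes whose profile over the 15 libraries lay closest to that of an iron gene were found by the root mean square (RMS) difference of log2(RPKM + 1), each gene centred on its own mean. For TFRC, whose own RMS about its mean was 1.0, they were CENPF (0.39) and LMNB1 (0.43). LMNB1 was at 50.2 RPKM in pLKO, 43.0 in shPALI1 and 42.5 in shG9a, and at 9.81 in shJarid2 and 21.9 in shsuz12. For FTH1 (0.95) they were LRRCC1 (0.36) and CTNNAL1 (0.38), and for HMOX1 (0.8) SERPINI1 (0.32) and COL5A2 (0.34). For FTL (0.53) they were HDDC2 (0.15) and CFL1 (0.16). CFL1 was at 459 RPKM in pLKO and 163 in shG9a, its lowest group, as was the case for FTL. For SLC11A2 (0.51) the closest were ZDHHC17 (0.12) and PDPR (0.14), for SLC40A1 (0.57) SEMA6A (0.21) and GDPD3 (0.23), for ACO1 (0.29) CTPS2 (0.078) and EMB (0.1), and for IREB2 (0.34) GOPC (0.095) and CUL5 (0.1). FTH1 and FTL were not among each other's 2 closest genes, but so short a list out of 12715 genes says little about how alike they were.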

How the data were processed

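The authors deposited 1 table of RPKM values, 1 column for each library. STAR was used with hg38, per the submitters' processing notes (counter, annotation and strand setting: not given in the sources used here). Left out were 32 names that carry no values. Groups came from the sample labels. RPKM was put on the log2(RPKM + 1) scale for the 12715 genes that reached 1 RPKM in 3 or more libraries. All 15 libraries entered 1 limma 3.58.1 fit (R 4.3.3) with group as its term and a mean-variance trend. The test was two-sided, with Benjamini-Hochberg adjustment over all genes of each of the 10 comparisons. The procedure was tested on simulated data. Depth came from the size of 1 read in genes under 400 bases; of their values under 50 reads, 92.7% to 94.8% came out whole to within 0.05 reads.

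The 9 genes and the lists were chosen with earlier results of these data known. Named by rule were the 9 genes, the targeted genes, in each comparison with pLKO up to 6 list genes that passed with a log2 change of at least 0.6, and the 2 closest profiles of each gene whose group means span at least 0.6. SQSTM1 in shJarid2 and SLC7A11 in shPALI1 were added after their values were seen. Some genes that the rule names are left out of the text. UTRs were read from GENCODE v29 on GRCh38. Tried as alternatives were other pseudocounts (0.1 and 0.5), dropping the filter, keeping genes with a mean RPKM from 3 up, scaling by median ratios, quantile normalization, TPM, fits to the 6 libraries of a comparison, the replicate number as a block, and each library left out in turn. Python 3.11.15 prepared the tables.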

Additional observations from a re-analysis of the deposited data

How the results depend on the processing

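Of 1340 values (each gene, comparison and alternative), 1261 kept their direction and side of the threshold, 47 lost the call, 15 gained it and 17 changed sign. In shPALI1 against pLKO the count of 5 became 3 with median ratio scaling, 3 with quantile normalization and 2 with TPM, and 2 to 5 with a library left out; FTH1 and HMOX1 were called in every alternative. In shG9a against pLKO the count of 2 became 1 to 2 with a library left out. The other 8 counts stayed within 1.5 times. SLC40A1 could not be tested at a mean RPKM of at least 3. Signs changed mainly in small differences: SLC40A1 between shPALI1 and shG9a (-0.008 at pseudocount 0.1, -0.061 with TPM, -0.09 and -0.054 without shPALI1 replicate 2 or 3, -0.057 without shG9a replicate 1; -0.09 to 0.193 with any library left out), NCOA4 in shPALI1 against pLKO (0.05 with median ratio scaling, 0.118 with quantile normalization, 0.023 with TPM, 0.069 without pLKO replicate 2, 0.007 without shPALI1 replicate 1; -0.043 to 0.069), IREB2 in shPALI1 against pLKO (0.005, quantile) and against shG9a (-0.038, TPM), and SLC40A1 in shJarid2 against pLKO (0.04, quantile). Without shJarid2 replicate 3, IREB2 changed sign in shJarid2 against pLKO (0.069; -0.348 to 0.069 over all left-out libraries), in shPALI1 against shJarid2 (-0.158; to 0.259) and in shG9a against shJarid2 (-0.209, adjusted p = 0.034, limma; to 0.208), and TFRC in shJarid2 against shsuz12 (0.055; from -0.169; with quantile normalization it was -0.262 and passed, adjusted p = 0.0445). TPM moved the median of all genes by 0.102 in shG9a and 0.114 in shsuz12 against pLKO, and the share of calls that rose from 42.7% to 57.8% and from 39.1% to 53%; median ratio scaling gave 50.9% in shsuz12. Of 18 list counts of 5 or more, 4 moved by over 1.5 times, the NRF2 and BACH1 falls in shsuz12 to 7 with quantile normalization or TPM and the autophagy rises in shG9a to 8 among them, beside the heme and cytosolic counts given in the text; counts under 5 moved by at most 3 genes. Replicate numbers did not pair the libraries: in no comparison did all 3 same-numbered pairs correlate above 0.1, and only in shG9a against shsuz12 did every library correlate best with its own number (r of 0.025 to 0.131). Among the 9 genes the replicate block changed 1 call, NCOA4 in shG9a against shsuz12 (-0.182, adjusted p = 0.0479, limma), which took that count from 7 to 8; in the lists it took the cytosolic falls in shPALI1 from 5 to 3. The causes were not tested. Depth limits SLC40A1 most, at under 1 RPKM in 10 libraries.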
